A study of Mus musculus with 8 samples.

Results

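The genes described here encode 10 SR splicing factors, Srsf1, Srsf2, Srsf3, Srsf4, Srsf5, Srsf6, Srsf7, Srsf9, Srsf10 and Srsf11, members of a family known for poison exons and other forms of unproductive splicing. They were found by matching the Ensembl gene identifiers in the count tables to mouse symbols, and made up 10 of the 37310 genes counted in the J1 libraries. All 10 were present and all 10 passed the filter on low counts, which left 14462 genes tested. The study asked how the RNA helicase eIF4A3 bears on the identity of mouse embryonic stem cells, and sequenced poly-A RNA from 8 libraries in 4 groups of 2. In the J1 line (strain 129S4/SvJae), the groups were labelled eIF4A3 knockdown with Ccnb1 overexpression (KD+Ccnb1), eIF4A3 knockdown with control overexpression (KD), and control knockdown with control overexpression (control). A further group was labelled eIF4A3 knockdown in the CCE line (strain 129/Sv), for which a control was not analysed here. Ccnb1 encodes cyclin B1, which drives entry into mitosis. All groups were grown without feeder cells, in serum with leukemia inhibitory factor. By the labels' shared protocol, all were transfected, drug-selected, infected with lentivirus, kept in puromycin at 1 µg/mL for 2.5 days and collected on day 4.5 after infection. Nothing in the labels ties the libraries of a group to separate cultures, so p-values measure the spread between these libraries, which may be technical.

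SR proteins join RNA recognition motifs to a tail rich in arginine and serine dipeptides. They bind enhancers within exons and help the spliceosome choose splice sites, and some of them also travel to the cytoplasm with the mRNA. Most SR genes limit their own output by splicing in a poison exon or another unproductive segment that brings an early stop codon into the transcript. The exon junction complex, of which eIF4A3 is the core helicase, then marks the junctions downstream of that stop, and nonsense-mediated decay removes the transcript. The counts used here sum all transcripts of a gene, so the inclusion of a poison exon was not measured.

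The GENCODE M21 annotation (GRCm38) lists a transcript of the decay class for 9 of the 10 genes and none for Srsf10. In 5 of these 9, Srsf3, Srsf4, Srsf7, Srsf9 and Srsf11, the stop codon lies in a cassette exon that overlaps no exon of a coding transcript. By coordinates, 7 exons of this kind were listed, which counts both forms of the Srsf4 exon, alike in their end and stop. In the other 4, Srsf1, Srsf2, Srsf5 and Srsf6, the exon with the stop overlaps an exon of a coding transcript. These exons were left out here, and whether they are cassettes too was not examined. The cassette exons are shown because the stop they bring is what places these transcripts in the decay class. Each is printed from its first base to its stop codon, 5′ to 3′ along the gene, with the stop in capitals, from the GENCODE M21 transcripts. The first 5 stand for the 5 genes and the sixth is a second cassette of Srsf11.
Srsf3: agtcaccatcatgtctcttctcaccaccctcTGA
Srsf4: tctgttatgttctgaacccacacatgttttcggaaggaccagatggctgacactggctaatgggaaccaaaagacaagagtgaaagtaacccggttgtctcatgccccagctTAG
Srsf7: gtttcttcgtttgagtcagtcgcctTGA
Srsf9: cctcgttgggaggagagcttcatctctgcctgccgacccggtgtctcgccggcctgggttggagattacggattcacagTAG
Srsf11: ttcttttccctggttcagccTGA
Srsf11, further exon: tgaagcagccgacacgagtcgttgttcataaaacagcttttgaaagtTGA
In GRCm38 these stretches lie at chr17:29039454-29039487 on the plus strand (Srsf3), chr4:131884276-131884390 on the plus strand (Srsf4), chr17:80205054-80205081 on the minus strand (Srsf7), chr5:115328347-115328428 on the plus strand (Srsf9), and chr3:158024209-158024231 and chr3:158023310-158023359 on the minus strand (Srsf11). The stop arrives within 34 bases of the exon start in Srsf3 and within 28 and 23 bases in Srsf7 and the first Srsf11 exon, but only after 115 bases in Srsf4 and 82 bases in Srsf9. The whole exons span 456 bases in Srsf3, 207 bases in Srsf4, 460 bases in Srsf7, 358 bases in Srsf9, and 109 and 117 bases in Srsf11, and Srsf4 has a second listed form of 188 bases. The Srsf3, Srsf7 and Srsf11 exons end the frame with TGA, and the Srsf4 and Srsf9 exons end it with TAG.

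The libraries themselves differed in ways that touch every result below. Gene counts were 5871830 and 6620504 in labelled KD+Ccnb1, 4398141 and 3596615 in labelled KD, and 5740965 and 8340023 in control, against 23965806 and 25573379 in CCE. The spread between libraries was 1.88 times Poisson noise in labelled KD+Ccnb1, 22.0 times in labelled KD and 3.41 times in control. Unaligned reads were 15.7% and 15.8% in labelled KD+Ccnb1, 40.8% and 45.2% in labelled KD, and 15.9% and 15.7% in control. Reads set aside for low alignment quality were 32.7% and 32.55% in labelled KD+Ccnb1, 22.0% and 20.65% in labelled KD, and 33.7% and 33.5% in control. Eif4a3 stood at 47.3 and 53.5 CPM (gene counts scaled to a total of 1000000) in labelled KD+Ccnb1, at 75.7 and 37.5 CPM in labelled KD and at 73.5 and 83.7 CPM in control. Replicate 1 of labelled KD was thus at the control level, which goes against its label, and the log2 fold change of labelled KD against control was -0.63 (SE 0.33, edgeR adjusted p = 0.211). That of labelled KD+Ccnb1 against control was -0.72 (SE 0.32, edgeR adjusted p = 0.190). Ccnb1 stood at 136 and 131 CPM in labelled KD+Ccnb1, at 101 and 126 CPM in labelled KD and at 135 and 129 CPM in control. It was not called in labelled KD+Ccnb1 against control (log2 fold change -0.06, SE 0.14, edgeR adjusted p = 0.814) or against labelled KD (0.31, SE 0.14, edgeR adjusted p = 0.129). Counted by its own row, Ccnb1 therefore does not show the overexpression of the label. The processed pseudogenes Ccnb1-ps and Gm12856, 99.2% and 98.1% identical to it, had 266.5 and 283 CPM and 34.4 and 33.8 CPM in labelled KD+Ccnb1, against 28.0 and 33.3 CPM and 3.31 and 2.88 CPM in control. Gene and copies summed to 437 and 447 CPM in labelled KD+Ccnb1, to 126 and 156 CPM in labelled KD and to 166 and 165.5 CPM in control. Of 10 embryonic stem cell markers, none was at 0 in any library, and their summed level was 8407 and 8413 CPM in labelled KD+Ccnb1, 4212 and 3835 CPM in labelled KD and 8901 and 8881 CPM in control. The 10 fibroblast markers summed to 42.4 and 45.0 CPM in labelled KD+Ccnb1, 35.7 and 46.7 CPM in labelled KD and 23.3 and 13.1 CPM in control, with 4 to 7 of the 10 at 0 in each J1 library. The 11 markers of differentiated lineages in the files summed to 121 and 114 CPM in labelled KD+Ccnb1, 39.3 and 84.8 CPM in labelled KD and 47.0 and 47.8 CPM in control. The part of the unaligned and low-quality reads and of the marker levels in the results below was not tested.

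The comparison of labelled KD with control asks which SR transcripts differ with the label of eIF4A3 knockdown. Of the 10 genes, 7 fell, Srsf1, Srsf2, Srsf3, Srsf5, Srsf6, Srsf9 and Srsf10, and none passed edgeR's quasi-likelihood test as higher (1 at an unadjusted p under 0.05, Srsf11). Over all genes tested, 17.9% fell, 11.0% rose and 28.9% were called in either direction. The CPM of the groups did not overlap for 9 of the 10 genes, of which 7 were lower and 2 higher in labelled KD, against 62.3% of all genes tested without overlap. The median log2 fold change was -0.63 over the 10 genes and -0.08 over all genes tested. In bulk RNA, fewer cells of a type and less RNA per cell cannot be told apart. Fold changes below are on the scale of trimmed-mean (TMM) normalization, which moved them by -0.16 on the log2 scale in this comparison relative to the CPM printed.

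**Figure D1:**
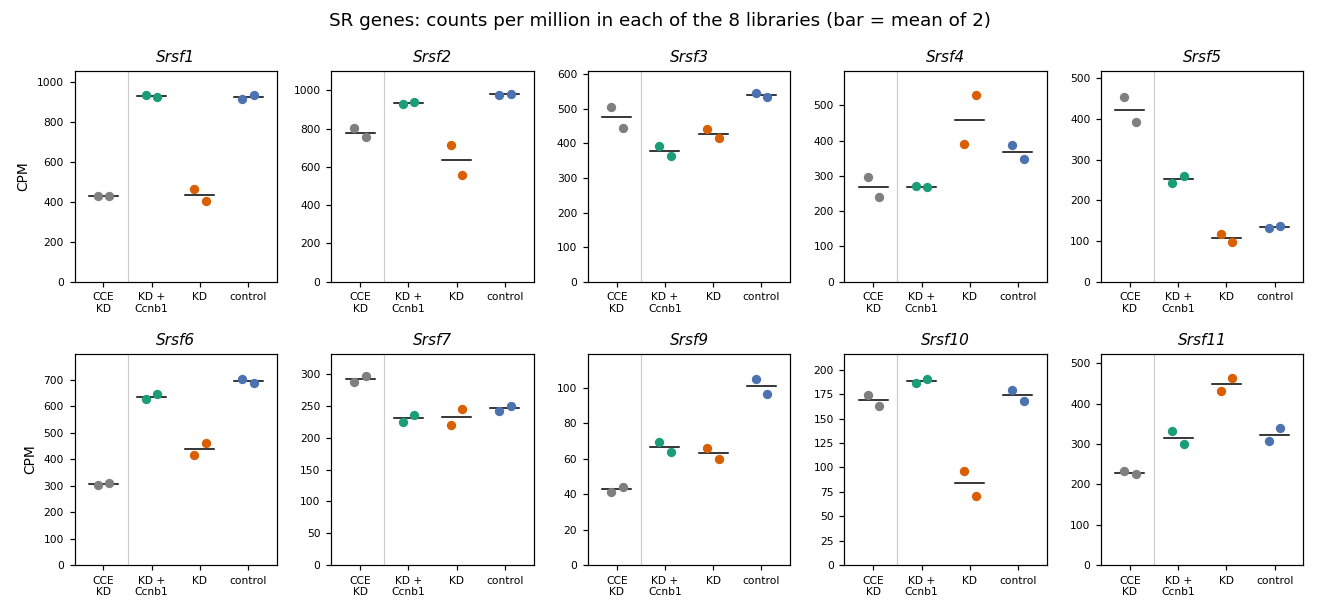
CPM of each SR gene in the 8 libraries. Each point is 1 library and each bar the mean of 2, with the CCE libraries left of a grey line because they were counted differently from J1. Srsf1 lies at 465 and 405 CPM in labelled KD, far under the 4 other J1 libraries.

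Among the genes with a pair of RNA recognition motifs, Srsf1, the founding SR protein, which shuttles between nucleus and cytoplasm, had 465 and 405 CPM in labelled KD, against 913 and 932 CPM in control. Both labelled KD libraries were far under both control libraries, at a fold of 0.424. Srsf1 fell by 1.24 on the log2 scale (SE 0.07, edgeR adjusted p = 0.000533), the largest change of the 10. Srsf9, its closest relative in the family, had 66.2 and 60.1 CPM in labelled KD, against 105 and 96.4 CPM in control. It too was lower in both libraries, and fell by 0.83 on the log2 scale (SE 0.13, edgeR adjusted p = 0.00975). Srsf6, which binds exonic enhancers, had 414.5 and 462 CPM in labelled KD, against 705 and 688 CPM in control, and fell by 0.82 on the log2 scale (SE 0.07, edgeR adjusted p = 0.00169). The groups were well apart. Srsf5, an SR protein first known as a gene induced in regenerating liver of the rat, had 118 and 98.4 CPM in labelled KD, against 131 and 138 CPM in control. The gap between the groups was smaller than the gap between the labelled KD libraries, and Srsf5 fell by 0.47 on the log2 scale (SE 0.11, edgeR adjusted p = 0.0301). Srsf4, which has a long arginine and serine tail, went the other way in CPM, with 390 and 529 CPM in labelled KD, against 388 and 347 CPM in control. Its lower labelled KD library stood beside the higher control library, and the log2 fold change of 0.17 (SE 0.15, edgeR adjusted p = 0.474) did not pass.

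Among the genes with a single RNA recognition motif, Srsf2, which stays largely in the nucleus, had 714 and 559 CPM in labelled KD, against 975 and 981 CPM in control. Both labelled KD libraries were lower, though they stood apart from each other, and Srsf2 fell by 0.78 on the log2 scale (SE 0.11, edgeR adjusted p = 0.00599). Srsf3, a small shuttling SR protein that also serves as an adaptor for mRNA export, had 441 and 415 CPM in labelled KD, against 546 and 533 CPM in control, and fell by 0.49 on the log2 scale (SE 0.07, edgeR adjusted p = 0.00578). Srsf10, which acts as a splicing repressor when dephosphorylated, had 96.9 and 70.3 CPM in labelled KD, against 180 and 168 CPM in control. Srsf10 fell by 1.21 on the log2 scale (SE 0.16, edgeR adjusted p = 0.00470), a change close in size to that of Srsf1. Srsf7, an export adaptor with a zinc knuckle, had 221 and 245.5 CPM in labelled KD, against 242 and 249.9 CPM in control. The groups overlapped, and the log2 fold change of -0.23 (SE 0.09, edgeR adjusted p = 0.104) did not pass. Srsf11 had 431.5 and 463 CPM in labelled KD, against 306 and 339 CPM in control. Both labelled KD libraries were higher, with a log2 fold change of 0.31 (SE 0.09, edgeR adjusted p = 0.0548) short of the threshold. It passed as higher under 6 of the 15 alternatives, with adjusted p over all 15 from 2.67e-06 to 0.369 in edgeR's or DESeq2's test.

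The SE and p-values rest on a spread pooled over the 3 J1 groups. Without either control library, 2 of the 10 genes were called, Srsf1 and Srsf6, and these were the only called genes that stayed called under all 15 alternatives, while Srsf5 was lost in 9 of them. Without labelled KD replicate 1, the library with Eif4a3 at the control level, all 10 were called, 8 lower and 2 higher (Srsf4 and Srsf11), but the remaining labelled KD library was then assumed to vary like the other groups. The log2 fold change of Srsf4 was 0.35 without labelled KD replicate 1 (adjusted p = 4.8e-07 in edgeR). It was -0.10 with replicate 2 left out instead (adjusted p = 0.172 in edgeR). The DESeq2 test called Srsf11 higher at 0.36 (DESeq2 adjusted p = 0.00165) and the same 7 genes lower.

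**Figure D2:**
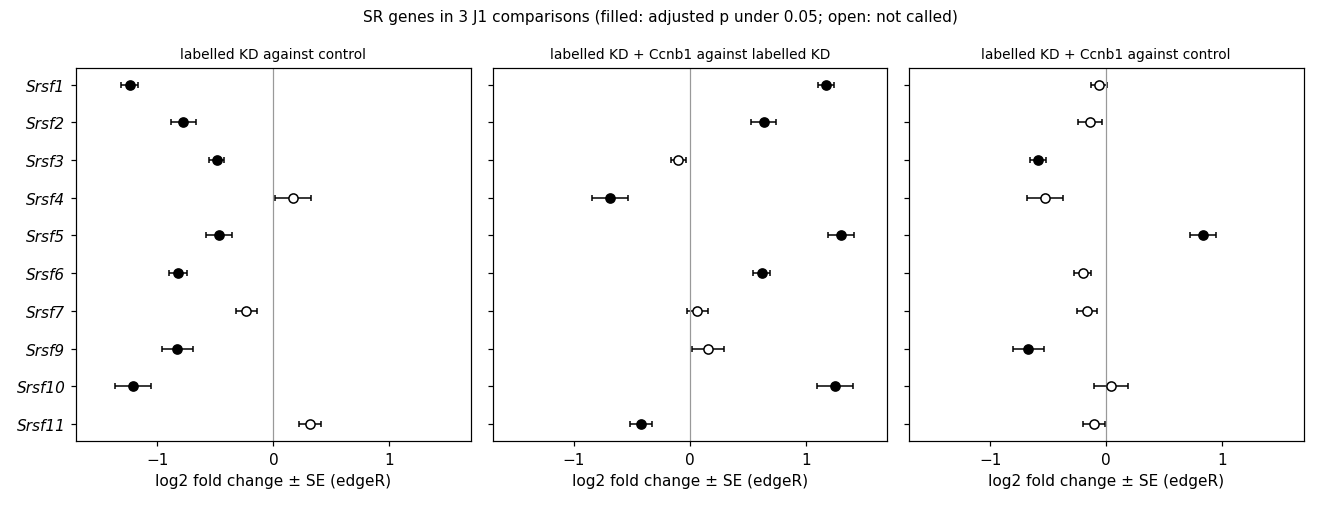
Log2 fold changes of the 10 SR genes with their SE in the 3 J1 comparisons, each a group over the group named after it. Filled points passed the threshold of 0.05 on the adjusted p. Srsf1 and Srsf10 lie at -1.24 and -1.21 on the left, at 1.18 and 1.25 in the middle and near 0 on the right.

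The comparison of labelled KD+Ccnb1 with labelled KD asks which SR transcripts differ between the group labelled with Ccnb1 overexpression and the group labelled without it. Of the 10 genes, 5 rose, Srsf1, Srsf2, Srsf5, Srsf6 and Srsf10, and 2 fell, Srsf4 and Srsf11. Over all genes tested, 38.8% were called, 22.8% higher and 16.0% lower. The groups did not overlap for 8 of the 10 genes, against 70.5% of all genes tested. The median log2 fold change was 0.39 over the 10 genes and 0.14 over all genes tested. This comparison shares the labelled KD libraries with the one above, so a gene low in those libraries is lower in the one and higher in the other.

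Srsf5 had the largest rise, with 244 and 261 CPM in labelled KD+Ccnb1, against 118 and 98.4 CPM in labelled KD. The log2 fold change was 1.30 (SE 0.11, edgeR adjusted p = 0.000899), and both labelled KD+Ccnb1 libraries exceeded the control libraries as well. Srsf10 had 186 and 191 CPM in labelled KD+Ccnb1, against 96.9 and 70.3 CPM in labelled KD (log2 fold change 1.25, SE 0.16, edgeR adjusted p = 0.00284). With an offset for GC content and length it was 0.81 (edgeR adjusted p = 0.0131), and that of Srsf5 was 0.88 (edgeR adjusted p = 0.00376). Srsf1 had 933 and 926.5 CPM in labelled KD+Ccnb1, against 465 and 405 CPM in labelled KD. Its log2 fold change was 1.18 (SE 0.07, edgeR adjusted p = 0.000312), but 0.53 (edgeR adjusted p = 0.00498) with that offset. Srsf2 had 929 and 941 CPM in labelled KD+Ccnb1, against 714 and 559 CPM in labelled KD (log2 fold change 0.64, SE 0.11, edgeR adjusted p = 0.00788). Srsf6 had 628 and 647 CPM in labelled KD+Ccnb1, against 414.5 and 462 CPM in labelled KD. Its log2 fold change was 0.62 (SE 0.07, edgeR adjusted p = 0.00246), and 0.26 (edgeR adjusted p = 0.0420) with the same offset.

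Srsf4 and Srsf11, both higher in CPM in labelled KD than in control, were lower in labelled KD+Ccnb1 than in labelled KD. Srsf4 had 269.9 and 268 CPM in labelled KD+Ccnb1, against 390 and 529 CPM in labelled KD, and fell by 0.69 on the log2 scale (SE 0.16, edgeR adjusted p = 0.0192). With the same offset it was -0.38 (edgeR adjusted p = 0.123) and no longer passed. Srsf11 had 333 and 299 CPM in labelled KD+Ccnb1, against 431.5 and 463 CPM in labelled KD, and fell by 0.42 (SE 0.09, edgeR adjusted p = 0.0186). Srsf3, Srsf7 and Srsf9 did not pass. Srsf3 had 394 and 362 CPM in labelled KD+Ccnb1, against 441 and 415 CPM in labelled KD, a log2 fold change of -0.10 (SE 0.07, edgeR adjusted p = 0.306). Srsf7 had 225.5 and 236 CPM in labelled KD+Ccnb1, against 221 and 245.5 CPM in labelled KD (log2 fold change 0.07, SE 0.09, edgeR adjusted p = 0.610). Srsf9 had 69.5 and 63.6 CPM in labelled KD+Ccnb1, against 66.2 and 60.1 CPM in labelled KD (0.16, SE 0.14, edgeR adjusted p = 0.417). Both overlapped between the groups. Srsf1, Srsf5, Srsf6 and Srsf10 stayed called under all 15 alternatives, while Srsf4 was lost in 6 of them, Srsf11 in 4 and Srsf2 in 2. Without labelled KD replicate 1, the same count of 7 was called, 5 higher and 2 lower.

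The comparison of labelled KD+Ccnb1 with control asks which SR transcripts differ from control in the group labelled with both treatments. Srsf5 rose, Srsf3 and Srsf9 fell, and the other 7 genes did not pass. Over all genes tested, 19.8% were called, 9.35% higher and 10.5% lower. The groups did not overlap for 8 of the 10 genes, against 79.0% of all genes tested. The median log2 fold change was -0.15 over the 10 genes and 0.07 over all genes tested.

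Srsf5 had 244 and 261 CPM in labelled KD+Ccnb1, against 131 and 138 CPM in control, and was the gene farthest from control (log2 fold change 0.83, SE 0.11, edgeR adjusted p = 0.00631). Srsf9 had 69.5 and 63.6 CPM in labelled KD+Ccnb1, against 105 and 96.4 CPM in control, and fell by 0.67 on the log2 scale (SE 0.13, edgeR adjusted p = 0.0218). Its level was close to the 66.2 and 60.1 CPM of labelled KD. Srsf3 had 394 and 362 CPM in labelled KD+Ccnb1, against 546 and 533 CPM in control, and fell by 0.59 (SE 0.07, edgeR adjusted p = 0.00421). Srsf4 had 269.9 and 268 CPM in labelled KD+Ccnb1, against 388 and 347 CPM in control. The groups stood apart, but the log2 fold change of -0.52 (SE 0.15, edgeR adjusted p = 0.0682) did not pass. Srsf1 had a log2 fold change of -0.06 (SE 0.07, edgeR adjusted p = 0.591), and Srsf10 one of 0.04 (SE 0.15, edgeR adjusted p = 0.892), both small beside their changes in labelled KD. Srsf2, Srsf6, Srsf7 and Srsf11 lay between -0.20 and -0.11, with adjusted p from 0.113 to 0.490 in edgeR's quasi-likelihood test. Leaving out any 1 of the 4 libraries compared, edgeR called no SR gene (3 or 4 at an unadjusted p under 0.05), and it called 9 when fitted on these 4 libraries alone. The DESeq2 test called 5, adding Srsf4 and Srsf6 as lower. Adding the GC and length offset, Srsf1 was also called lower, at -0.70 (edgeR adjusted p = 0.00529), and Srsf6 at -0.47 (edgeR adjusted p = 0.0145).

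**Figure D3:**
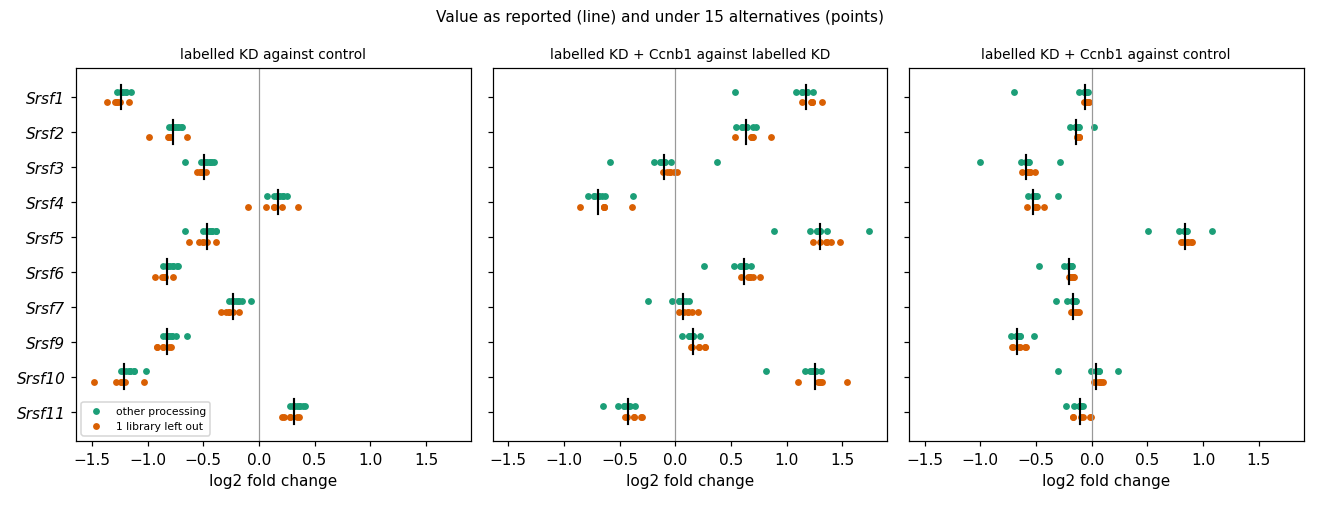
Log2 fold changes of the 10 SR genes as reported (black line) and under 15 alternatives (points, green for other processing and orange for 1 library left out). Srsf3 crosses 0 in the middle panel, between -0.58 and 0.38.

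Of the 10 genes, 3 share sequence with near-identical copies, between which reads can be split, so their counts are uncertain. Srsf3 has Gm9761, a processed pseudogene 99.6% identical over 492 bases, and Gm12355, 98.3% identical over 1298 bases, besides Gm11922, which had no count in any library. Srsf5 has the processed pseudogene Gm12966, 98.7% identical over 813 bases, and Srsf10 has the processed pseudogene Gm5446, 98.5% identical over 772 bases. The other 7 genes had no copy of at least 90% identity over 300 bases. Counts of the Srsf5 copy were 246.5% and 231% of the gene's own in labelled KD+Ccnb1, 131% and 173% in labelled KD and 195% and 176% in control. In CCE they were 0.0735% and 0.0597%. Counts of the Srsf3 copies were 53.7% and 60.9% of the gene's own in labelled KD+Ccnb1, 12.6% and 13.4% in labelled KD and 27.6% and 27.3% in control. Those of the Srsf10 copy were 30.7% and 28.8% in labelled KD+Ccnb1, 23.2% and 40.7% in labelled KD and 13.1% and 14.3% in control. For Srsf3 and for Srsf5 the share of copies did not overlap between any of the 3 J1 groups, and it was highest in labelled KD+Ccnb1. For Srsf10 it overlapped between labelled KD+Ccnb1 and labelled KD, and was lower in control. Exons of Srsf1, Srsf2 and Srsf4 also overlap genes on the opposite strand, and with the strand handling not given in the sources used here, reads of such pairs cannot be told apart.

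**Figure D4:**
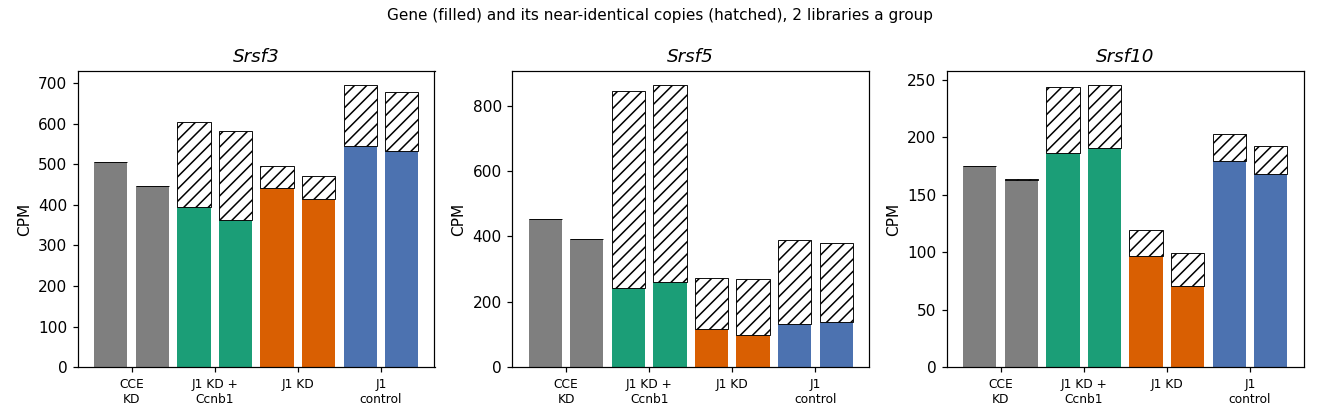
CPM of Srsf3, Srsf5 and Srsf10 (filled) with their near-identical copies stacked on top (hatched), 2 bars a group. The CCE bars have almost no hatched part, and the Srsf5 copy takes more than the gene itself in all 6 J1 libraries.

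Summed with its copies, Srsf5 reached 844 and 864 CPM in labelled KD+Ccnb1, 272 and 269 CPM in labelled KD and 388 and 380 CPM in control. The rise against labelled KD was then 1.74 on the log2 scale (edgeR adjusted p = 0.000106), and that against control 1.08 (edgeR adjusted p = 0.000571). The call for Srsf5 in labelled KD against control also held, at -0.66 (edgeR adjusted p = 0.00120). Srsf3 with its copies reached 606 and 583 CPM in labelled KD+Ccnb1, 496 and 471 CPM in labelled KD and 696 and 679 CPM in control. Its difference between labelled KD+Ccnb1 and labelled KD turned round, to 0.38 (edgeR adjusted p = 0.00460), so its direction there depends on how reads of the copies are counted. Under the GC and length offset it was -0.58 (edgeR adjusted p = 0.00264). Srsf3 stayed lower with its copies in labelled KD (-0.66, edgeR adjusted p = 0.00124) and in labelled KD+Ccnb1 (-0.28, edgeR adjusted p = 0.0195), both against control. Srsf10 with its copy changed by -1.01 in labelled KD against control (edgeR adjusted p = 0.00264) and by 1.24 in labelled KD+Ccnb1 against labelled KD (edgeR adjusted p = 0.000910).

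Across the family, the 10 genes together made up 4211 and 4195 CPM in labelled KD+Ccnb1, 3357 and 3308 CPM in labelled KD and 4492 and 4473 CPM in control. Both labelled KD libraries were below the other 4, and without copies labelled KD+Ccnb1 was below control. The Srsf5 copy alone had 601 and 603 CPM in labelled KD+Ccnb1, against 257 and 242 CPM in control. The copies of Srsf3 and Srsf10 were also higher in labelled KD+Ccnb1 than in control. The order of labelled KD+Ccnb1 and control in the summed level therefore depends on how the copies are counted. To compare genes, levels were taken per kilobase of annotated exon. This length joins the exons of all annotated transcripts of a gene, those with retained introns included. It runs from 1653 bases in Srsf9 to 8446 bases in Srsf11, and the order of the genes depends on it. On that scale Srsf2 was the highest and Srsf10 the lowest of the 10 in each of the 8 libraries. In control the order was Srsf2 (331 CPM per kb), Srsf1 (162), Srsf6 (145), Srsf4 (103), Srsf7 (69.3) with Srsf3 (68.3), Srsf9 (60.9), Srsf11 (38.2), Srsf5 (33.7) and Srsf10 (24.8), all in CPM per kb, and Srsf7 and Srsf3 overlapped. Srsf4 stood second in labelled KD at 129 CPM per kb and Srsf1 at 76.3 CPM per kb came behind Srsf6 at 91.2 CPM per kb. There Srsf3 and Srsf11 overlapped, at 54.2 and 53.0 CPM per kb. Srsf1 was again second in labelled KD+Ccnb1, at 163 CPM per kb, and Srsf5 had moved up beside Srsf7, at 63.3 and 65.0 CPM per kb, which overlapped. Srsf9 and Srsf11 overlapped too, at 40.3 and 37.4 CPM per kb. These orders leave out the copies. With its copy, per kb of its own exons, Srsf5 had 212 and 217 CPM per kb in labelled KD+Ccnb1, above Srsf1, and 68.2 and 67.4 CPM per kb in labelled KD. In control it had 97.3 and 95.2 CPM per kb, below Srsf4.

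**Figure D5:**
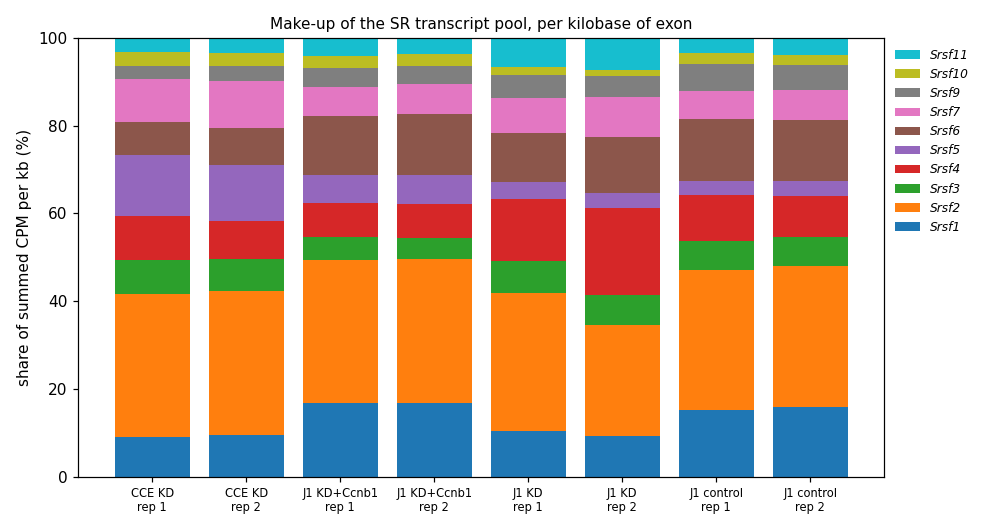
Share of each SR gene in the summed CPM per kilobase of exon of the 10, in percent, for each of the 8 libraries. Srsf2 takes 25.1% to 32.8% in every library, and Srsf1 takes less in labelled KD and CCE than in the other 4 libraries.

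As a share of the summed CPM per kb, Srsf1 held 16.9% and 16.8% in labelled KD+Ccnb1, 10.6% and 9.44% in labelled KD and 15.4% and 15.9% in control. Srsf4 held 7.84% and 7.78% in labelled KD+Ccnb1, 14.2% and 19.7% in labelled KD and 10.5% and 9.47% in control. Srsf11 held 4.08% and 3.66% in labelled KD+Ccnb1, 6.63% and 7.29% in labelled KD and 3.49% and 3.90% in control. Srsf4 and Srsf11 thus took more of the pool in labelled KD than in the other J1 libraries, and Srsf1 less. Srsf5 held 6.32% and 6.76% in labelled KD+Ccnb1, 3.83% and 3.28% in labelled KD and 3.16% and 3.35% in control, without its copy.

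The members' profiles over the 6 J1 libraries, as log2(CPM + 0.5) centred on each gene's mean, were compared by their root mean square distance. Of 45 pairs, Srsf1 and Srsf10 were the most alike, at 0.096, and Srsf4 and Srsf10 the least alike, at 0.855. Srsf2 and Srsf6 lay nearest the median profile of the 10, at 0.124 and 0.126, and Srsf4 and Srsf5 farthest, at 0.485 and 0.484. Among 7661 other genes averaging 20 CPM or more, the 5 nearest to that median profile were Dusp27 (0.041), Oxsr1 (0.043), Mcm2 (0.051), Wdhd1 (0.055) and Eif3l (0.057). Mcm2, a subunit of the replicative helicase, had 234 and 239 CPM in labelled KD+Ccnb1, 191 and 193 CPM in labelled KD and 259 and 263 CPM in control.

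The CCE libraries, labelled eIF4A3 knockdown, were counted in another way than the J1 libraries. Their tables hold no unaligned and no low-quality reads, 9.71% and 10.03% of reads in the row for reads that are not unique (none in J1) and 48.5% and 49.5% outside genes (11.9% to 13.9% in J1). Eif4a3 stood at 48.8 and 53.9 CPM there. The embryonic stem cell markers were all detected and summed to 4086 and 4476 CPM, and the fibroblast markers, all detected too, summed to 205 and 273 CPM. Of these fibroblast sums, Acta2 alone made up 133 and 213 CPM, and Postn, Dcn and Lum had only 1 to 12 counts a library. Thy1, at 1.09 and 0.547 CPM, was below its 6.37 to 17.7 CPM in J1. The 10 SR genes summed to 3526 and 3306 CPM. In CPM per kb, Srsf2 led at 263 and Srsf5 came second at 106, ahead of Srsf7 (82.5), Srsf4 (75.6) and Srsf1 (74.9), in CPM per kb. Srsf4 overlapped with each of the other two, while Srsf7 was above Srsf1 in both libraries. Srsf6 (63.9) and Srsf3 (60.2) overlapped as well, and Srsf11 (27.1), Srsf9 (25.8) and Srsf10 (24.1) followed, again in CPM per kb. Srsf1 had 427.5 and 428 CPM and Srsf6 303 and 312 CPM in CCE, and Srsf9 had 41.4 and 44.0 CPM. Srsf5, at 454 and 393 CPM, had hardly any count in its copy there. Srsf2 had 802 and 756 CPM, Srsf3 had 505 and 446 CPM, and Srsf4 had 297 and 241 CPM. Srsf7 stood at 288 and 298 CPM, Srsf10 at 175 and 163 CPM, and Srsf11 at 233 and 225 CPM. Line, counting and treatment cannot be told apart in these values.

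Other genes of the pathway were read from lists of related genes, whose counts stand against the shares over all genes tested. These were 11.0% higher and 17.9% lower in labelled KD against control, 22.8% higher and 16.0% lower in labelled KD+Ccnb1 against labelled KD, and 9.35% higher and 10.5% lower in labelled KD+Ccnb1 against control. Among 16 other splicing regulators whose transcripts are coupled to decay, 3 rose and 7 fell in labelled KD against control (median log2 fold change -0.31). The polypyrimidine tract protein gene Ptbp1 fell by 1.15 (SE 0.07), Tardbp by 0.97 (SE 0.06) and Hnrnpd by 0.94 (SE 0.07), while the RS-domain gene Rbm39 rose by 0.85 (SE 0.07). Between labelled KD+Ccnb1 and labelled KD, 7 rose and 4 fell (median 0.13), among them Ptbp1 (1.18), Tardbp (0.81), Snrnp70 (-1.06) and Tra2a (-1.02). Against control, 3 fell in labelled KD+Ccnb1, Snrnp70 (-0.97), Hnrnpl (-0.33) and Tra2a (-0.40), none rose (also none at an unadjusted p under 0.05), and the median was 0.01. Of 15 hnRNP genes outside that list, 9 fell and none rose in labelled KD against control (median -0.59, none higher at an unadjusted p under 0.05 either), with Hnrnph2 at -1.78 (SE 0.17), Hnrnpab at -1.46 (SE 0.08), Hnrnpa0 at -1.18 (SE 0.07) and Hnrnpu at -0.53 (SE 0.06). In labelled KD+Ccnb1 against labelled KD, 11 rose and none fell, with none lower at an unadjusted p under 0.05 either (median 1.14), with Hnrnpa0 at 1.30, Hnrnpul1 at 1.18, Hnrnpab at 1.13 and Hnrnpu at 0.86. Against control, 4 rose and 2 fell in labelled KD+Ccnb1 (median 0.23), with Hnrnpa1 at 2.01, Hnrnpul1 at 0.57, Hnrnpul2 at 0.52 and Hnrnpu at 0.33. All these are log2 fold changes called in edgeR's quasi-likelihood test. Hnrnpa1 had 76.5 and 77.0 CPM in labelled KD+Ccnb1 and 17.6 and 18.5 CPM in control, but 717 and 618 CPM in CCE. Near-identical copies of the hnRNP genes were not searched for, so their part in these changes was not tested.

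Among 21 other genes for proteins with arginine and serine tails, 4 rose and 2 fell in labelled KD against control (median 0.05), together a share near the 28.9% called over all genes. The speckle scaffold gene Srrm2 changed by -0.71 (SE 0.05), U2af2, which recognises the polypyrimidine tract, by -0.84 (SE 0.11), Srek1 by 0.89 (SE 0.14) and Sfswap by 1.01 (SE 0.17). Between labelled KD+Ccnb1 and labelled KD, 9 rose and 6 fell (median 0.39), Srrm2 by 1.58 and Acin1 by -1.01 among them, and against control 7 rose and 3 fell (median 0.25), Srrm2 by 0.87 and Zranb2 by 1.05. Of 9 tested genes for the kinases and the importer of SR proteins, 2 rose and 2 fell in labelled KD against control (median 0.06). Clk3 and Clk4, whose kinases phosphorylate SR proteins in the nucleus, rose by 1.13 (SE 0.18) and 0.85 (SE 0.21), and the cytoplasmic SR kinase gene Srpk1 and the importer gene Tnpo3 fell by 0.62 (SE 0.12) and 0.76 (SE 0.12). Of the same 9, 2 rose and 1 fell between labelled KD+Ccnb1 and labelled KD (median -0.12), and 2 fell and none rose between labelled KD+Ccnb1 and control (median 0.16, 2 higher at an unadjusted p under 0.05). Clk3 changed by -0.86 (SE 0.18), Prpf4b by 1.46 (SE 0.33) and Srpk2 by 0.77 (SE 0.18) in labelled KD+Ccnb1 against labelled KD. Srpk1 changed by -0.74 and Tnpo3 by -0.47 in labelled KD+Ccnb1 against control.

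Of 10 genes of nonsense-mediated decay, 3 rose and 1 fell in labelled KD against control (median 0.06), against 28.9% of all genes called in either direction, namely Smg9 (1.02, SE 0.17), Upf3a (0.64, SE 0.13), Smg1 (0.40, SE 0.08) and Upf3b (-1.21, SE 0.15). Upf3a and Upf3b, a pair of related genes that link the exon junction complex to decay, moved in opposite directions. Between labelled KD+Ccnb1 and labelled KD, 5 rose and 4 fell (median 0.14), against 38.8% of all genes called, with Upf3a at -1.52, Smg9 at -1.63, Smg8 at 1.48 and Upf3b at 0.98. Against control 3 rose and 2 fell in labelled KD+Ccnb1 (median -0.18), against 19.8% of all genes called, with Smg1 at 0.89, Smg8 at 1.29, Smg5 at -0.44 and Upf3a at -0.87. None of the 5 genes of the exon junction complex core passed edgeR's quasi-likelihood test in any comparison (2, 1 and 1 at an unadjusted p under 0.05, in the order of the comparisons above). Their medians were -1.06, 0.42 and -0.45 in that order. In labelled KD against control, Rbm8a stood at -1.29 (SE 0.39), Magoh at -1.06 (SE 0.52) and Magohb at -5.57 (SE 2.03). Magohb had 0 counts in both labelled KD libraries and only 10 and 2 in control, so the size of its change is not reliable. Eif4a3 was at -0.63 (SE 0.33), and only Casc3 was above 0, at 0.22 (SE 0.16). All 10 embryonic stem cell markers fell in labelled KD against control (median -1.40), and all 10 rose in labelled KD+Ccnb1 against labelled KD (median 1.57). Srsf1, Srsf2, Srsf5, Srsf6 and Srsf10 were called in the same directions, and both comparisons share the labelled KD libraries. Against control, 4 rose and 2 fell in labelled KD+Ccnb1 (median -0.02). Of 4 fibroblast markers tested, Col1a1 rose in labelled KD against control, by 3.50 (SE 0.61), and fell in labelled KD+Ccnb1 against labelled KD, by 2.36 (SE 0.58). It had only 8 and 9 counts in control. Pdgfra, Twist1 and Thy1 were not called in either comparison. They stood at 2.78, -1.18 and -0.02 in labelled KD against control. In labelled KD+Ccnb1 against labelled KD they stood at 0.04, 2.22 and 0.67, the other way from Col1a1. Of 9 differentiated lineage markers tested, Krt18 rose in labelled KD (1.65, SE 0.44) and in labelled KD+Ccnb1 (2.12, SE 0.44), both against control, and between labelled KD+Ccnb1 and labelled KD 2 of the 9 rose and 1 fell.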

How the data were processed

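Whole-number read counts per Ensembl gene were deposited by the authors for each of the 8 libraries, with 5 summary rows that name no gene. These rows entered neither library sizes nor tests. Their shares are given in the text, except that of reads ambiguous between genes, which was 0.33% to 0.59% in the 8 libraries. Tools listed in the submitters' processing notes are HTSeq 0.11.2, Bowtie2 2.3.4.3, edgeR 3.26.8 and SAMtools 1.9, with the build mm9 and no roles or strand handling. Per the labels' protocols, reads were single-end of 100 bp or paired-end of 150 bp. Of 37310 gene IDs, 32620 matched a GENCODE M21 symbol; 1 further gene of the CCE tables was not used. GENCODE M21 (GRCm38) differs from mm9, so its coordinates belong to the printed sequences only.

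Counts were tested in R 4.3.3 with edgeR 4.0.16 (quasi-likelihood F test, two-sided, TMM scaling, filterByExpr, 1 fit over the 6 J1 libraries, no replicate block), with Benjamini-Hochberg adjustment over 14462 genes and a threshold of 0.05. SE was obtained by dividing the size of the log2 fold change by the root of its F statistic. CPM divides by all gene counts, without TMM; mean and spread rest on n = 2. A count of 0 allows up to 3 counts, 0.360 to 0.834 CPM in J1, for counting error only. Counting error follows from the total counts per library, and the spread between libraries adds to it. The procedure was tested on data simulated with the same dispersion in all groups, which does not cover the unequal spread of these groups. Copies were searched with BLAST 2.17.0. Alternatives included DESeq2 1.42.0 size factors and test, filters, 2 groups only, a replicate block, an offset for GC content and length (97.3% of tested genes had both), counts divided by the spread, sums with copies, and each J1 library left out. CCE libraries entered no test.

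Same-numbered libraries did not deviate together (correlations 0.0143, 0.009 and 0.00103 over 8267 genes), so no pairing by number was seen. A small shared effect could be hidden by the spread between libraries and is not excluded. The members and lists were chosen with earlier results of these data known. All 10 members are named, with up to 4 genes of each list by smallest adjusted p, and the 5 genes nearest to the members' median profile.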

Additional observations from a re-analysis of the deposited data

Results flagged for a closer look

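In the CCE libraries, which entered no comparison, Srsf5 averaged 423.6 CPM and Srsf7 293.0 CPM, above the J1 control means of 134.4 and 246.1 CPM. No test was made, since the CCE tables were counted in another way and the copy of Srsf5 held 0.0735% and 0.0597% of the gene's counts there, against 195% and 176% in J1 control. Summed with its copy, Srsf5 had 454.3 and 393.5 CPM in CCE, against 387.9 and 379.5 CPM in J1 control, a much smaller gap.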

How the results depend on the processing

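Of 450 values of single SR genes under alternatives, 367 kept direction and side of the threshold, 42 no longer passed it, 33 newly passed it and 8 changed sign. Of these, 1 was called, Srsf3 in labelled KD+Ccnb1 against labelled KD at 0.378 when summed with its copies, and Srsf3 lay between -0.107 and 0.0109 there with 1 library left out. The other sign changes were not called, namely Srsf7 in the same comparison (-0.0262 at a mean of at least 5 CPM, -0.249 with the GC and length offset), Srsf4 in labelled KD against control (-0.0993, not called, to 0.351, called as higher, with 1 library left out), and, in labelled KD+Ccnb1 against control, Srsf10 (-0.00676 with 2 groups, -0.307 with that offset) and Srsf2 (0.0245 with that offset). In labelled KD against control, 1760 genes were called with only the 2 groups in the fit and 2631 with the replicate block, against 4184 as reported. Leaving out 1 library gave 701 to 10225 genes and 2 to 10 of the SR genes. In labelled KD+Ccnb1 against labelled KD, leaving out 1 library gave 1674 to 11078 genes and 4 to 8 SR genes. In labelled KD+Ccnb1 against control, 3 SR genes and 2865 genes were called as reported. The DESeq2 test gave 5 and 4598, only the 2 groups gave 9 and 8658, counts divided by the spread gave 7 and 8386, and the GC and length offset gave 1884 genes. Leaving out 1 library there gave 0 to 7 SR genes and 254 to 8806 genes, 7 without either labelled KD library. After TMM scaling the summed level without copies was 4220 CPM in labelled KD+Ccnb1, 3165 CPM in labelled KD and 4741 CPM in control. The cause of these shifts was not tested. No pairing of the libraries by replicate number was seen. With the replicate block 6, 7 and 3 SR genes were called in the 3 comparisons, and Srsf5 was lost in the first.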

Other observations

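Exons of Srsf1, Srsf2 and Srsf4 overlap genes on the opposite strand, over 98 bases (Gm11508), 460 and 288 bases (Mettl23 and Mfsd11) and 1532 bases (Gm12992). Strand handling is not given in the sources used here, so reads from these pairs cannot be told apart. Gm12992 had 40 and 29 counts in labelled KD+Ccnb1, 82 and 22 in labelled KD, 51 and 90 in control, and 4585 and 4210 in CCE.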
